A study of Saccharomyces cerevisiae with 5 samples.

Results

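Genes of the yeast pheromone response and of filamentous growth were examined in budding yeast (Saccharomyces cerevisiae) moved to a high glucose concentration. The list holds 32 named genes of the 6205 open reading frames (ORFs) on the arrays. Each was found by its ORF identifier. Of the 32, 31 have a value on at least 1 array, 25 have a value on all 5 and 30 could be tested. PRM6 has no value, and its spots, at 1.2 to 1.3 times the local background, were marked as unreliable in both scanner files.

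Cells grown overnight in YP medium with 2% glucose were diluted into YP with 2% or 20% glucose and frozen after 1 hour. Each of 5 two-colour arrays carried RNA of both cultures, with 20% glucose in Cy3 on arrays 1, 3 and 4 and in Cy5 on arrays 2 and 5. The labels name neither the strain, its genotype, its ploidy nor its mating type, and all samples share the overnight growth in 2% glucose. They do not say whether the arrays come from separate cultures, so p-values measure only the spread between arrays, which may be technical.

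A haploid yeast cell of mating type a secretes a-factor and carries the receptor for alpha-factor, and an alpha cell does the reverse. The receptor releases a G protein, which starts a kinase cascade that ends at the transcription factor Ste12. Ste12 turns on genes of adhesion, cell fusion and nuclear fusion, and together with Tec1 it turns on genes of filamentous growth such as FLO11. Several of the upstream kinases also serve the osmotic stress pathway. Transcription of some mating genes, among them STE2 and FAR1, also varies over the cell cycle.

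All values are log2 ratios of RNA labelled 20% over RNA labelled 2% glucose, so a value of 1 is a doubling. The direction rests on the dye labels, since the deposited table runs the other way by those labels and was multiplied by -1. It could be set against scanner intensities only on arrays 4 and 5. By the same labels GPD1, a glycerol synthesis gene known to be induced by osmotic stress, lay between -6.88 and -1.78 on the 5 arrays, opposite to its known direction. Labels swapped on all 5 arrays would turn all signs given here and leave the sizes as they are. Labels swapped on some arrays alone would also change the sizes of the values that combine arrays. In bulk RNA, a change in the share of cells that express a gene and a change in RNA per cell cannot be told apart.

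The arrays fall into 2 sets, arrays 1 to 3, which have no scanner file here, and arrays 4 and 5, which have one. Both sets hold both dye orientations. Across all spots, arrays 4 and 5 correlated with each other at r = 0.95, arrays 2 and 3 at 0.86, and array 1 with arrays 2 and 3 at 0.60 and 0.62. Between the sets r was 0.26 to 0.37. No label says what separates the sets, so set, culture and hybridisation cannot be told apart. Each result is therefore given within the sets beside the value over 5 arrays. The median range of a listed gene within arrays 1 to 3 was 0.35 (0.30 over all ORFs), and the median difference between arrays 4 and 5 was 0.07 (0.09 over all ORFs).

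**Figure D1:**
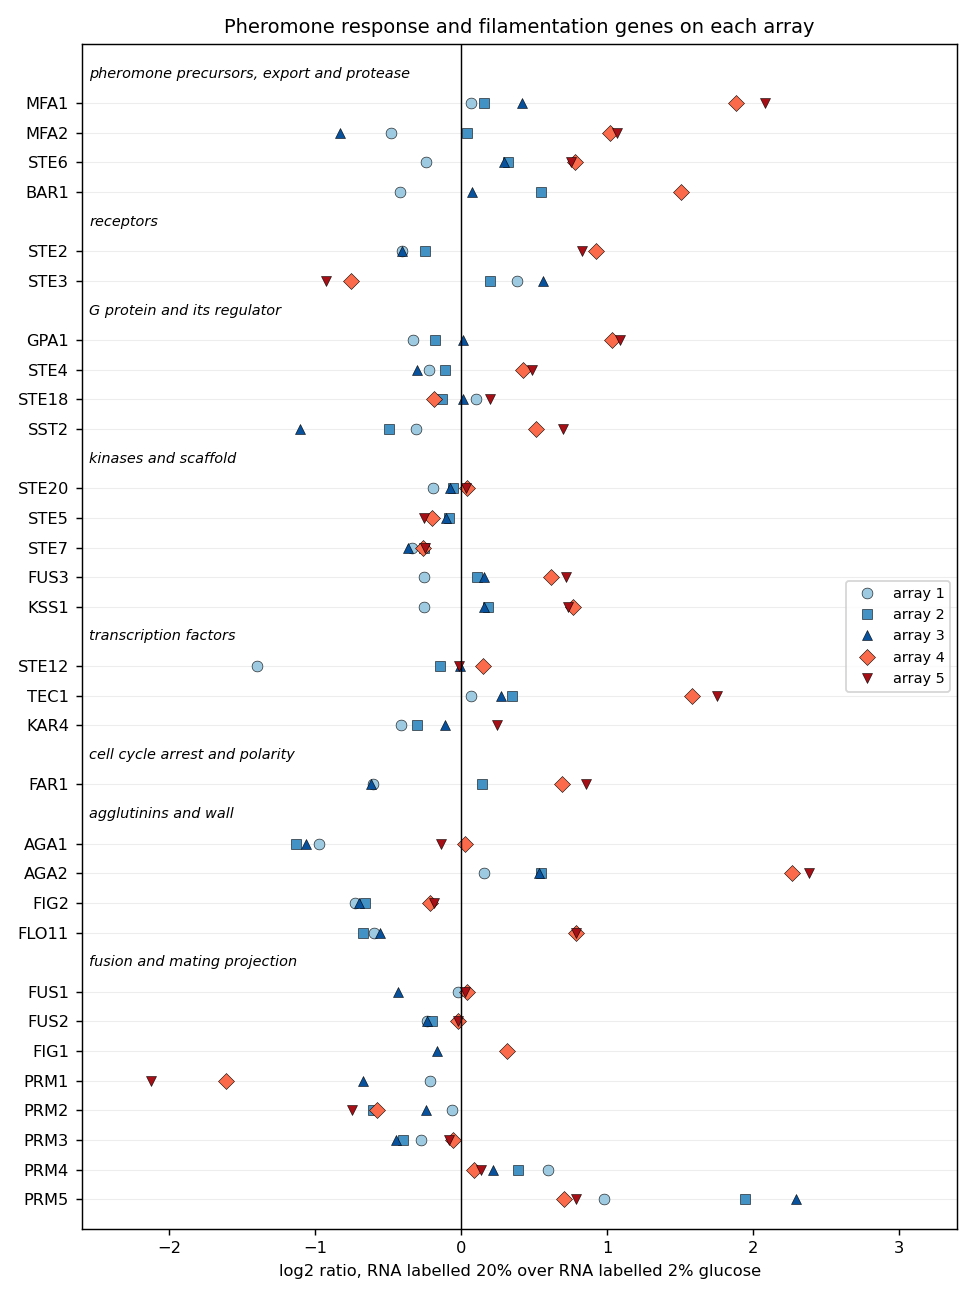
Log2 ratios of the 31 genes with a value, RNA labelled 20% over RNA labelled 2% glucose (horizontal axis), grouped by role, with 1 symbol per array. Arrays 1 to 3 (blue) and arrays 4 and 5 (red) lie apart for genes such as AGA2, MFA1, TEC1, FLO11, STE2 and STE3, and overlap for STE18.

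Over the 5 arrays, 0 of the 30 genes tested passed an adjusted p of 0.05 in limma (Benjamini-Hochberg over all ORFs). Of all ORFs 3.69% passed (2.24% higher and 1.45% lower). An unadjusted p under 0.05 in limma was found for 11 of the 30, against 1551 of 5447 ORFs. The smallest adjusted p was 0.0588, of PRM2. When the set was added to the fit, 16 of 30 passed, against 29.7% of all ORFs, and with no dye term 4 passed, against 16.9%. The fit with the set weights the sets equally and does not ask that their signs match. Its 16 genes include STE2 (0.265) and STE3 (-0.252), each of opposite sign in the sets.

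The sets differed for many of these genes. In the test of arrays 4 and 5 minus arrays 1 to 3, 12 genes had a higher ratio on arrays 4 and 5 and 1 a lower one, of 30 tested, which is 43.3% against 12.8% of all ORFs (6.61% higher and 6.17% lower). The 12 were MFA1, MFA2, BAR1, AGA2, AGA1, STE2, GPA1, STE4, SST2, FAR1, TEC1 and FLO11, and the lower one was STE3. BAR1 has 1 value in the second set, so its call rests on array 4 there. Their adjusted p lay between 0.00446 and 0.0332. Of the 25 genes with 5 values, 18 had both arrays of the second set above all 3 of the first (30.1% of all such ORFs) and 3 had both below (28.7%).

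The count of 13 depends on which arrays are present. Without array 1 it was 18 of 26 tested, against 46.8% of all ORFs in that fit. Without array 3 it was 15 of 25, against 17.1% of all ORFs. Without array 2 it was 8 of 27 tested, against 3.41% of all ORFs in that fit, because GPA1, SST2, AGA1 and STE4 no longer passed and BAR1 could not be tested. Without array 4 it was 4 of 26, against 1.99% of all ORFs, namely AGA2, MFA1, TEC1 and FLO11. Without array 5, SST2 and STE4 no longer passed. The fitted differences of the 13 genes stayed on their side of 0 in every such fit that could test them. The 13 were picked by this same difference, so the kept sign is no separate support. With the dye term, the fits without array 2 and without array 5 give the same difference, array 4 against arrays 1 and 3. Without array 4 the difference is array 5 against array 2 alone.

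Within arrays 4 and 5, 14 genes were higher and 6 lower of 28 tested, or 71.4% against 54.4% of all ORFs (27.9% higher and 26.6% lower). Within arrays 1 to 3, 1 gene was higher and 4 were lower of 27, or 18.5% against 17.4% of all ORFs (11.5% higher and 5.96% lower), a share near the background. With no dye term 11 of 27 passed there, against 24.4% of all ORFs. The median over the listed genes was -0.21 on arrays 1 to 3 and 0.32 on arrays 4 and 5, against -0.02 and -0.00 over all ORFs. By array the medians were -0.25, -0.10, -0.11, 0.37 and 0.25.

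**Figure D2:**
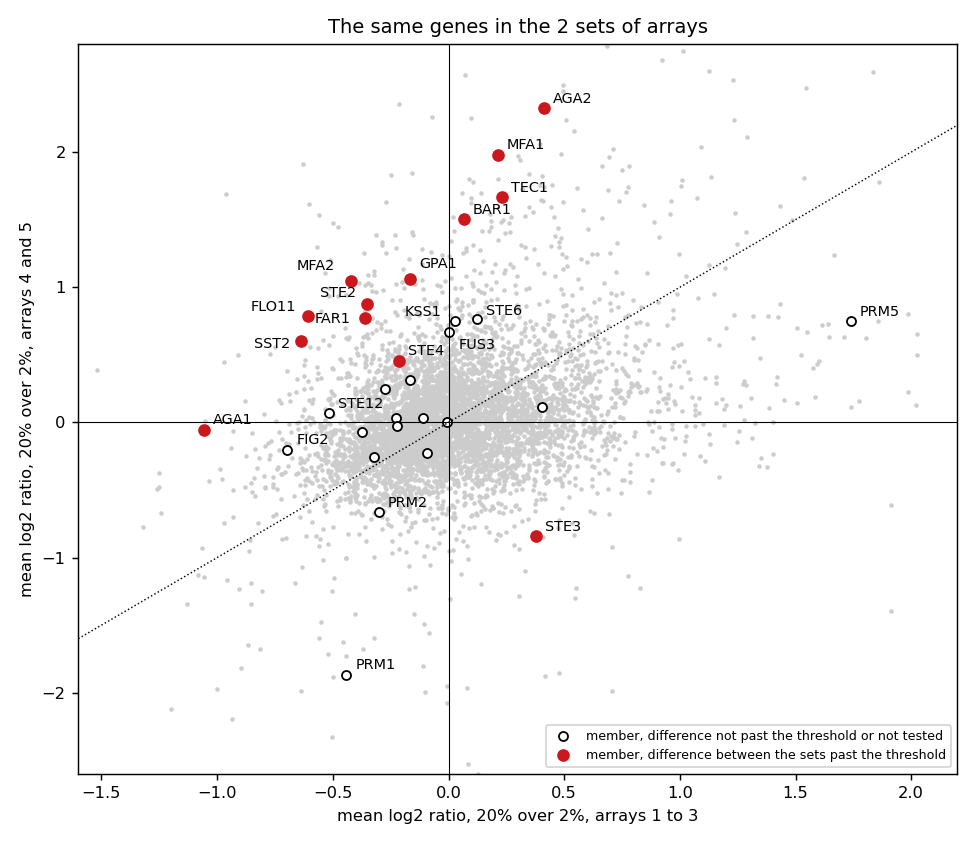
Mean log2 ratio on arrays 1 to 3 (horizontal) against arrays 4 and 5 (vertical) for all ORFs (grey) and the listed genes (circles), with the line of equal values dotted and ORFs beyond the axes not shown. Filled circles mark the 13 genes whose difference between the sets passed the threshold, 12 above the line and STE3 below it.

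The a-factor genes gave some of the largest differences. MFA1 encodes a precursor of a-factor and read 0.07, 0.15 and 0.42 on arrays 1 to 3 and 1.88 and 2.08 on arrays 4 and 5. All 5 values were positive, and the sets did not overlap. The difference was 1.76 ± 0.17 (standard error, SE; adjusted p = 0.00526), and the mean on arrays 4 and 5 was a 3.95-fold higher level in the RNA labelled 20%. MFA2, the other a-factor gene, read -0.48, 0.04 and -0.83 on the first set and 1.02 and 1.07 on the second. It was near or below 0 on arrays 1 to 3, and on arrays 4 and 5 about 2.06-fold higher in the RNA labelled 20%. The difference between the sets was 1.40 ± 0.20 (adjusted p = 0.0146). Both genes encode nearly the same pheromone, and their spots may share signal.

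STE6, the transporter that exports a-factor, read -0.24, 0.32 and 0.29, then 0.78 and 0.75. The sets did not overlap, but the difference of 0.62 ± 0.20 did not pass (adjusted p = 0.100). Its 95% interval ran from 0.12 to 1.11. BAR1, the secreted protease by which a cells degrade alpha-factor, read -0.42, 0.54 and 0.08 on arrays 1 to 3 and 1.5 on array 4. It has no deposited value on array 5, although its spot there was 3.1 to 8.6 times background over both dyes. Its difference, 1.68 ± 0.27 (adjusted p = 0.0248), therefore rests on array 4 alone for the second set.

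The receptors moved in opposite directions. STE2, the alpha-factor receptor of a cells, read -0.41, -0.25 and -0.41 on arrays 1 to 3 and 0.93 and 0.82 on arrays 4 and 5. STE3, the a-factor receptor of alpha cells, read 0.38, 0.19 and 0.56 on arrays 1 to 3 and -0.76 and -0.93 on arrays 4 and 5. Each receptor changed sign between the sets on every array, and on every array the receptors had opposite signs. The difference between the sets was 1.22 ± 0.14 for STE2 (adjusted p = 0.00771) and -1.18 ± 0.14 for STE3 (adjusted p = 0.00816). Over the 5 arrays the changes cancelled, to 0.16 ± 0.26 for STE2 and -0.15 ± 0.26 for STE3. Among the 25 genes with 5 values, 5 were lower on each of arrays 1 to 3 and higher on both others (8.82% of all such ORFs), and STE3 alone had the reverse pattern (9.76%).

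Spots of both mating types gave signal. On arrays 4 and 5 the STE2 spot was 17.2 to 59.0 times the local background and the STE3 spot 5.0 to 17.5 times, over both dyes. The a-specific list holds STE2, STE6, MFA1, MFA2, AGA2, BAR1 and ASG7, the last an inhibitor of signalling after mating, which is not among the 32. Of the 6 tested, 5 were higher on arrays 4 and 5 than on arrays 1 to 3 and 0 lower, all but STE6 (83.3%, against 12.8% of all ORFs). On arrays 4 and 5 all 11 values of these genes were positive, with a median of the gene means of 1.27. ASG7 has values on arrays 1 and 3 alone (0.45 and 0.57).

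The alpha-specific genes gave mixed values. Of 4 tested, STE3 alone was lower on arrays 4 and 5 than on arrays 1 to 3 past the threshold (25.0%, against 12.8% of all ORFs). AFB1, which encodes a protein that blocks a-factor, read -0.54 and 0.72 on arrays 1 and 3 and -0.82 and -0.74 on arrays 4 and 5. Its difference was -0.91 ± 0.53 (adjusted p = 0.309). Within arrays 4 and 5, STE3 and AFB1 were lower in limma (adjusted p = 0.00201 and 0.00149) of 3 tested (66.7%, against 54.4% of all ORFs). SAG1, the alpha agglutinin, stayed between -0.24 and 0.175 on all 5 arrays. MF(ALPHA)2, the minor alpha-factor gene, lay between -0.35 and -0.03 on the 4 arrays with a value. MF(ALPHA)1, the major one, has no value in the deposited table, although its spots on arrays 4 and 5 were 23.1 to 61.0 times background. What the a-specific and alpha-specific values mean for the mating type of the cells was not tested.

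**Figure D3:**
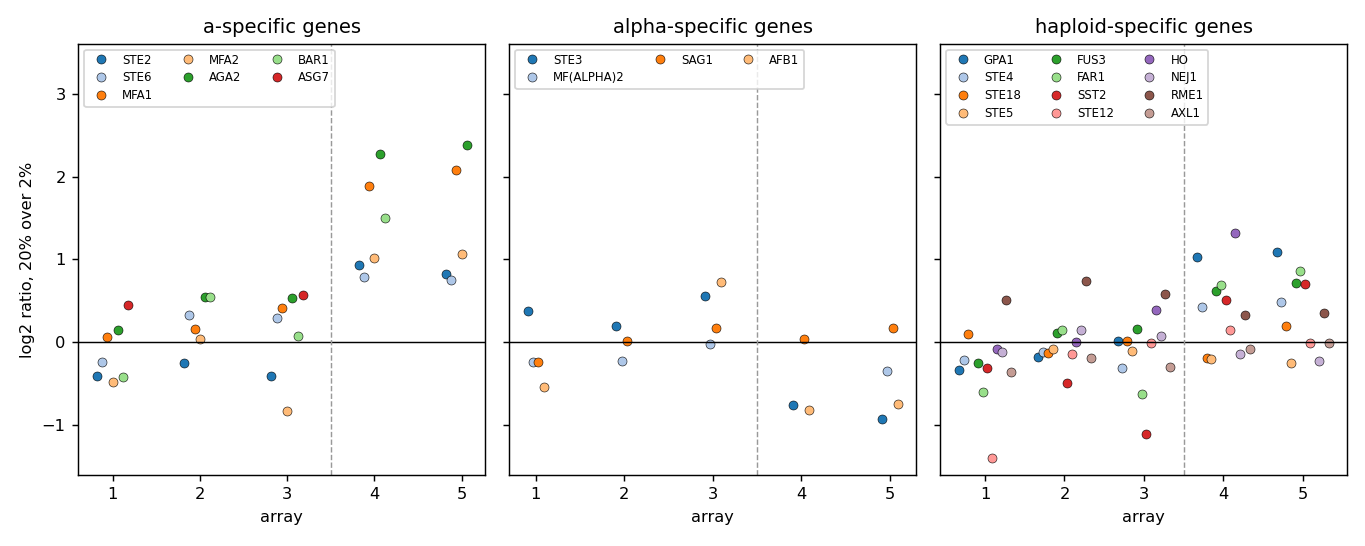
Log2 ratios on each array of a-specific, alpha-specific and haploid-specific genes, RNA labelled 20% over RNA labelled 2% glucose (vertical axis), with 1 colour per gene in each panel and the sets separated by the dashed line. On arrays 4 and 5 every a-specific value is above 0 and STE3 and AFB1 are below 0, while the haploid-specific genes spread to both sides.

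Next came the G protein. GPA1, its alpha subunit, read -0.33, -0.18 and 0.01 on arrays 1 to 3 and 1.03 and 1.09 on arrays 4 and 5. Its mean on arrays 4 and 5 was a 2.09-fold higher level in the RNA labelled 20%. The difference between the sets was 1.23 ± 0.16 (adjusted p = 0.0104). STE4, the beta subunit that carries the signal, read -0.22, -0.11 and -0.30, then 0.43 and 0.48. The difference of 0.65 ± 0.13 was smaller and passed (adjusted p = 0.0299). STE18, the gamma subunit, read 0.10, -0.13, 0.01, -0.19 and 0.20, so that the sets overlapped and no shift was seen (difference 0.00 ± 0.17, 95% interval -0.42 to 0.43). Of the 3 subunits, STE18 had the widest disagreement between arrays 4 and 5.

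SST2, which switches the G protein off and so lowers the response, read -0.31, -0.50 and -1.11 on arrays 1 to 3 and 0.51 and 0.70 on arrays 4 and 5. It changed sign with the set, with a difference of 1.21 ± 0.25 (adjusted p = 0.0332), and was lower past the threshold within arrays 1 to 3 (adjusted p = 0.0292). Without array 2, array 4 or array 5 the difference no longer passed.

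In the kinase cascade 0 of 5 genes differed between the sets past the threshold, a count near the 12.8% of all ORFs. FUS3, the kinase of the mating branch, read -0.25, 0.11 and 0.16, then 0.62 and 0.72, a difference of 0.64 ± 0.17 (adjusted p = 0.0612). KSS1, the kinase that also serves filamentation, read -0.25, 0.19 and 0.15, then 0.76 and 0.73, a difference of 0.70 ± 0.17 (adjusted p = 0.0552). Both kinases were higher within arrays 4 and 5 (adjusted p = 0.00234 and 0.00142), and in neither did the sets overlap.

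The other listed members of the cascade had smaller values. STE7, the kinase that activates Fus3 and Kss1, lay between -0.37 and -0.25 on all 5 arrays, and its difference of 0.05 ± 0.12 had a 95% interval from -0.26 to 0.36. STE5, the scaffold that holds the cascade, lay between -0.25 and -0.08 on 4 arrays. STE20, the kinase at the top of the cascade, lay between -0.19 and 0.04. Within arrays 4 and 5, STE7 and STE5 were lower past the threshold (adjusted p = 0.0172 and 0.0256), at -0.26 and -0.23, where 54.4% of all ORFs passed.

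The transcription factors behaved differently from each other. TEC1, the factor of filamentous growth, read 0.07, 0.35 and 0.27 on arrays 1 to 3 and 1.58 and 1.75 on arrays 4 and 5. It was positive on all 5 arrays, and its mean on arrays 4 and 5 was a 3.17-fold higher level in the RNA labelled 20%. The difference between the sets was 1.41 ± 0.14 (adjusted p = 0.00556). STE12, the factor common to mating and filamentation, read -1.40 on array 1 and between -0.15 and 0.15 on the other 4. Its mean on arrays 1 to 3, -0.52 ± 0.77 (SD, n = 3), was set by array 1, and its difference between the sets was 0.55 ± 0.42 (adjusted p = 0.424). Without array 1 the difference was 0.145. KAR4, a partner of Ste12 for nuclear fusion genes, read -0.41, -0.30 and -0.11 on arrays 1 to 3 and 0.25 on array 5, with no value on array 4. That difference of 0.55 ± 0.25 did not pass (adjusted p = 0.211).

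FAR1, which halts the cell cycle in G1 and orients the mating projection, read -0.61, 0.14 and -0.62, then 0.69 and 0.86. Array 2 stood apart from the other arrays of its set. Within that set, array 2 alone had 20% glucose in Cy5, so array and dye cannot be told apart there. The SD over arrays 1 to 3 was 0.44. Fitted with a dye term, the difference between the sets was 1.05 ± 0.17 (adjusted p = 0.0204).

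Of 4 wall and adhesion genes, 3 were lower past the threshold within arrays 1 to 3, against 5.96% of all ORFs. Between the sets 3 of the 4 differed, against 12.8% of all ORFs. FLO11, the flocculin of filaments and mats, read -0.60, -0.67 and -0.55 on arrays 1 to 3 and 0.79 on both arrays 4 and 5. It was lower past the threshold in the first set (adjusted p = 0.00942) and higher in the second (adjusted p = 0.00125), with a difference of 1.40 ± 0.13 (adjusted p = 0.00491). Its spots on arrays 4 and 5 were 2.5 to 6.0 times background. AGA1, the anchor subunit of a-agglutinin, read -0.97, -1.13 and -1.07, then 0.03 and -0.14. It was 2.08-fold lower on arrays 1 to 3 (adjusted p = 0.000348) and near 0 on the others, a difference of 1.02 ± 0.13 (adjusted p = 0.00993).

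AGA2, the binding subunit that attaches to Aga1, was higher on arrays 4 and 5 than on arrays 1 to 3, as AGA1 was, but at other levels. It read 0.15, 0.55 and 0.53 on arrays 1 to 3 and 2.27 and 2.38 on arrays 4 and 5, the highest values of the listed genes on those arrays. The mean on arrays 4 and 5 was a 5.01-fold higher level in the RNA labelled 20%. Between the sets the difference was 1.89 ± 0.16 (adjusted p = 0.00446). The 2% channel of the AGA2 spot was as low as 2.2 times background (array 5). FIG2, an adhesin of mating cells, read -0.73, -0.66 and -0.70, then -0.21 and -0.19. It was lower within each set (adjusted p = 0.00552 and 0.0328), and the difference of 0.49 ± 0.12 did not pass (adjusted p = 0.0579).

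Genes of cell fusion, nuclear fusion and the mating projection were grouped with further PRM genes such as PRM4 and PRM5. This was the largest role group, and several of its genes are strongly induced by pheromone. Of 7 tested, 0 differed between the sets past the threshold, a count near the 12.8% of all ORFs. FUS1, a membrane protein of cell fusion, read -0.02 and -0.43 on arrays 1 and 3 and 0.04 and 0.03 on arrays 4 and 5. FUS2, which acts in the same step, read -0.24, -0.20 and -0.23, then -0.02 on both others. FIG1, a membrane protein of mating cells, had values on 2 arrays alone (-0.17 on array 3 and 0.32 on array 4) and could not be tested. PRM3, which acts in nuclear fusion, lay between -0.44 and -0.06.

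PRM1, a membrane protein of cell fusion, was negative on every array with a value. It read -0.21 and -0.67 on arrays 1 and 3 and -1.61 and -2.13 on arrays 4 and 5, with no value on array 2. It was 3.65-fold lower within arrays 4 and 5 (adjusted p = 0.00171), where its spot under the 20% label was 2.2 to 2.3 times background. The difference of -1.17 ± 0.26 just missed the threshold (adjusted p = 0.0516). PRM2 read -0.06, -0.60 and -0.24, then -0.58 and -0.75, and was lower within arrays 4 and 5 (adjusted p = 0.00328).

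PRM5 is induced by pheromone and is also known as a target of the cell wall integrity pathway. It read 0.98, 1.95 and 2.30 on arrays 1 to 3 and 0.71 and 0.79 on arrays 4 and 5. It was positive on all 5 arrays, higher past the threshold within each set (adjusted p = 0.000229 and 0.00167), and the highest of the list on arrays 1 to 3. Over 5 arrays it was at 1.35 ± 0.29 (adjusted p = 0.0599). PRM4 was also positive throughout, from 0.60 to 0.09, without passing in either set.

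Further genes of these pathways lie outside the 32. Of 21 further pathway and pheromone processing genes tested, 0 were higher and 1 was lower on arrays 4 and 5 than on arrays 1 to 3, or 4.8% against 12.8% of all ORFs. The lower one was STE11, the kinase above Ste7, at 0.17, 0.28 and 0.27, then -0.37 and -0.41 (difference -0.63 ± 0.13, adjusted p = 0.0327). PTP2, a phosphatase that acts on Fus3 and on the osmotic stress kinase Hog1, read 0.70, 1.34 and 1.79, then 0.06 and -0.03 (adjusted p = 0.0577). RAM2, a subunit of the enzyme that adds the lipid to a-factor, and MDG1 had differences of -0.52 ± 0.15 and -0.42 ± 0.13 that did not pass (adjusted p = 0.0797 and 0.0908). PTP3, a phosphatase of Fus3, was picked out after its values were seen. It was lower on all 5 arrays, between -0.88 and -0.56, the 1 gene of this list past the threshold over 5 arrays (adjusted p = 0.0335).

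Of 16 other pheromone-induced genes tested, 2 had a higher ratio on arrays 4 and 5 and 3 a lower one (31.2%, against 12.8% of all ORFs). PRM10 read -0.69, -0.44 and -0.13, then -3.32 and -3.01, a difference of -2.77 ± 0.21 (adjusted p = 0.00405). SCW10, a wall glucanase-like protein, read -0.67, -0.13 and -0.01, then 1.57 and 1.69 (difference 1.87 ± 0.22, adjusted p = 0.00871). PCL2, a G1 cyclin, read -0.93, -0.88 and -0.92, then 0.53 and 0.46 (difference 1.41 ± 0.13, adjusted p = 0.00489). CHS1, a chitin synthase, had a difference of -1.21 ± 0.18 (adjusted p = 0.0149).

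Of 23 other filamentation genes tested, 1 was higher and 1 lower on arrays 4 and 5 (8.7%, against 12.8% of all ORFs). HSL1, a kinase of the morphogenesis checkpoint, read -0.30, -0.48 and -0.24, then 0.92 and 0.75 (difference 1.21 ± 0.13, adjusted p = 0.00648). TPK2, the protein kinase A subunit that promotes filamentation, read 0.68, 0.89 and 1.17, then 0.08 and -0.14 (difference -0.92 ± 0.19, adjusted p = 0.0316). PHD1, a transcription factor of filamentation, and NRG1, a repressor, had differences of 0.85 ± 0.24 and -0.67 ± 0.22 (adjusted p = 0.0767 and 0.0994).

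Haploid-specific genes, which are repressed in a/alpha diploids, some of them only in part, differed among themselves. Of 12 tested, 4 were higher on arrays 4 and 5 than on arrays 1 to 3 and 0 lower (33.3%, against 12.8% of all ORFs), namely GPA1, STE4, FAR1 and SST2, which are all among the 32. The other genes of the list did not pass. FUS3, STE12, AXL1 and STE18 had differences of 0.64, 0.55, 0.22 and 0.00. HO had 1.155, with array 4 alone in the second set. STE5, NEJ1 and RME1 had differences of -0.14, -0.23 and -0.29.

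Cell cycle genes were read in the same way. Of 10 G1/S genes tested, 8 were higher on arrays 4 and 5 than on arrays 1 to 3 and 0 lower (80%, against 12.8% of all ORFs). The median was -0.41 on arrays 1 to 3 (the 10 genes with a value there) and 0.97 on arrays 4 and 5 (12 genes with a value), so the medians cover different genes. CLN2, a G1 cyclin, read -0.36, -0.24 and -0.20, then 1.24 and 1.27, and SVS1, a wall protein, had a difference of 2.57 ± 0.24 (adjusted p = 0.00501). POL1 and CDC45 of DNA replication had differences of 1.48 ± 0.15 and 1.42 ± 0.15 (adjusted p = 0.00604 and 0.00677). Of 11 genes of the M/G1 interval, 3 were higher and 0 lower (27.3%), namely SWI4, the activator of G1/S transcription, SCW11 and EGT2. The median of all 12 M/G1 genes was 0.14 on arrays 1 to 3 and 0.41 on arrays 4 and 5. The part of the cell cycle in the shift of the listed genes was not tested.

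**Figure D4:**
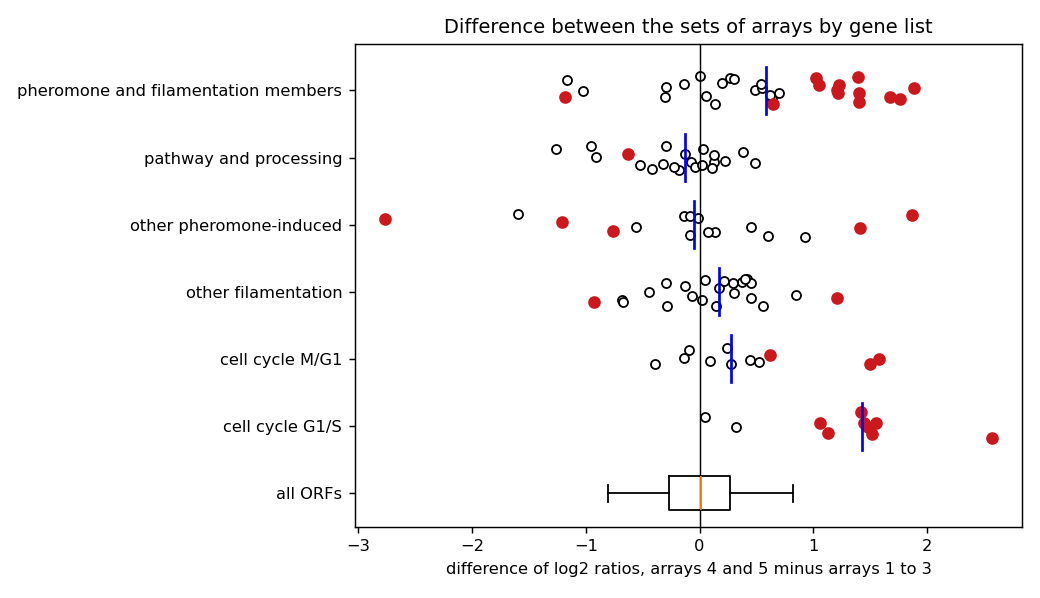
Fitted difference of log2 ratios, arrays 4 and 5 minus arrays 1 to 3 (horizontal axis), for each tested gene of each list, with filled red circles past the threshold, blue lines at list medians and, for all ORFs, a box over the quartiles with whiskers at the 5th and 95th percentiles. The red circles of the listed genes (12 of 13) and of the G1/S genes (8 of 8) lie to the right, while the further pathway genes have 1 and it lies to the left.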

How the data were processed

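Values are the authors' deposited log2 ratios (series table); the software behind them is not stated in the sources at hand. On arrays 4 and 5, 258 and 262 deposited values of 10 or more in size were about 10 times the scanner ratio (median multiple 10.18 on each array) and were divided by 10. This touched 12 values of 7 listed genes (AGA2, BAR1, GPA1, MFA1, MFA2, PRM1 and TEC1). Per the file headers, the scanner files of arrays 4 and 5 hold spot and background intensity. All values were multiplied by -1 to give 20% over 2% by the dye labels, and 2 spots of an ORF were averaged. limma 3.58.1 (R 4.3.3) was fitted across ORFs with values on at least 4 arrays, with a dye term and, for the difference between sets, a set term. Within a set all values were required, and 1 residual degree of freedom is left. Tests were two-sided, adjusted by Benjamini-Hochberg over all ORFs, at 0.05. The procedure was tested on simulated data. A RefSeq gene table (R64) named 5705 ORFs. The members and lists were chosen with earlier results of these data known. From each further list up to 4 genes with the smallest p of the set difference are named. The alpha-specific and haploid-specific lists are instead named in full, and PTP3, ASG7 and members of the 32 are named in addition. The number of arrays limits the precision.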

Additional observations from a re-analysis of the deposited data

Results flagged for a closer look

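STE12 on array 1 (-1.40) lay far from its other 4 values. Of 25 genes with 5 values it was the 1 gene whose gap to the next value exceeded 0.71 of its range (Dixon's rule). That rule marks about 1 in 20 genes when all 5 values come from a single normal distribution. A shift between the sets widens the range, so that rate need not hold here. The difference between arrays 4 and 5 and arrays 1 to 3 passed the limma test for 13 genes. It was 1.89 for AGA2, 1.76 for MFA1, 1.68 for BAR1, 1.41 for TEC1, 1.40 for FLO11 and 1.40 for MFA2. It was 1.23 for GPA1, 1.22 for STE2, 1.21 for SST2, 1.05 for FAR1, 1.02 for AGA1 and 0.65 for STE4, and -1.18 for STE3.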

How the results depend on the processing

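No paired analysis was possible because no 2 arrays share a replicate number; each log2 ratio already compares both media within 1 array. Over 5 arrays the count of listed genes past the threshold, 0, became 4 with no dye term and 16 when the set was added. It stayed 0 (range 0 to 0) when each array was left out. There 4 to 9 of 25 to 27 listed genes had an unadjusted p under 0.05 in limma, against 911 to 1377 of 4751 to 4953 ORFs. The count for the difference between sets, 13, ranged from 4 to 18 when each array was left out. It lay between 10 and 17 under the other alternatives. With values as deposited TEC1, FAR1, SST2 and STE4 no longer passed and PRM1 did. There the differences of TEC1, GPA1, MFA2, BAR1, MFA1 and AGA2, whose values were then not divided by 10, lay between 8.16 and 22.75. Within arrays 1 to 3 the count of 5 became 11 with no dye term. Within arrays 4 and 5 the count of 20 lay between 16 and 24. Leaving out arrays within a set gives no test there. The median of the listed genes then ranged from -0.19 to -0.17 on arrays 1 to 3 and from 0.25 to 0.37 on arrays 4 and 5. No difference between the sets that passed changed sign under any alternative run, but those genes were picked by that same difference. The 5-array values, none past the threshold, did change sign for STE2 (0.16 to -0.10), STE3 (-0.15 to 0.13), STE4, FAR1 and MFA2 without array 4 or array 5, for FLO11 (-0.03 to 0.33) and SST2 (-0.10 to 0.20) without array 2 or array 3, for FLO11 also without array 1 or with the set added, and for STE18 in 6 settings. Over all ORFs the 5-array count of 201 became 919 with no dye term, 1618 with the set term, 129 with scanner ratios, 1 with values as deposited, and 0 to 91 when each array was left out (0 without array 3 in limma, where 1030 had an unadjusted p under 0.05). The set difference count of 696 became 1183 with no dye term, 326 as deposited and 96 to 2225 when each array was left out. The count of 2924 within arrays 4 and 5 became 1279 as deposited. The cause of these changes was not tested. Spots of the listed genes with a value on arrays 4 and 5 were 2.2 to 82.6 times background.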

Other observations

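Genes of the mating type loci were looked at after the other values were seen, and their near-identical copies may share signal. MATALPHA2 read -0.31, 0.08, 0.23, -0.34 and 0.00 on arrays 1 to 5. HMRA1 read -0.14, 0.02, 0.49, 0.30 and 0.18, and HMRA2 read -0.36, 0.06, 0.27, -0.71 and -0.65. Within arrays 4 and 5 HMRA2 was lower past the threshold in limma (adjusted p = 0.00189) and HMRA1 higher (adjusted p = 0.0290), where 54.4% of all ORFs passed.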
